A study of Mus musculus with 10 samples.

Results

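The 35 genes described here encode the cytosolic and mitochondrial protein-folding machinery of the mouse, together with Hsf1 and Hsf2, transcription factors of the heat shock response. They were taken by gene symbol from the 34745 genes of the deposited table, and each symbol matched 1 identifier. The rule itself is a list of symbols and holds no threshold on a measured value, but the list was drawn up with earlier results of these data known. They cover the heat shock factors, the HSP70, HSP110 and HSP90 families, HSP90 co-chaperones, J-domain proteins, BAG proteins, small heat shock proteins, the mitochondrial chaperonin and the cytosolic chaperonin CCT. RNA was sequenced from Hepa1-6, a mouse hepatoma cell line labelled WT in every library. In 5 libraries the cells had been co-cultured for 48 h with CD8+ T cells, which came from spleens of male C57/BL6 mice aged 6 to 8 weeks and had been activated for 5 days with anti-CD3 and anti-CD28 antibodies at a dilution of 1 in 2000. In the other 5 libraries the cells received no treatment. The plates were rinsed with PBS to take off suspended cells before the RNA was harvested. No label says that the libraries of a group are separate cultures, and the p-values reflect the spread among libraries, which may be technical.

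HSP70 proteins bind exposed hydrophobic stretches of unfolded proteins, J-domain proteins bring them clients and trigger their ATP hydrolysis, and HSP110 and BAG proteins release the nucleotide so that the cycle can restart. Clients such as kinases and steroid receptors are handed on to HSP90 by co-chaperones, while the ring-shaped chaperonins enclose others, CCT in the cytosol (actin and tubulin among its clients) and HSP60 with its HSP10 lid in the mitochondrion. Under proteotoxic stress Hsf1 binds heat shock elements in promoters and raises the transcription of many of these genes, above all the inducible HSP70 genes.

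The chaperone genes differed little between co-cultured and untreated cells. Of the 35 genes, 34 passed the filter on low counts and were tested with edgeR. 4 were higher after co-culture (Hspa14, Cct8, Stip1 and Ahsa1), 4 were lower (Hspa2, Hspa1b, Hspb8 and Bag3), and 26 did not pass an adjusted p of 0.05. These 8 are 23.5% of the genes tested, beside 33.5% of all 12666 tested genes (17.4% higher and 16.1% lower). The log2 fold changes, co-culture over untreated, ran from -0.38 to 0.30 with a median of -0.035, beside a median of 0.0085 over all genes. Their median absolute size was 0.10, against 0.17 over all genes. No chaperone gene reached a 2-fold change. Of all genes tested, 2.77% had both an edgeR adjusted p under 0.05 and at least a 2-fold change. The groups did not overlap for 5 of the 34 genes, 3 higher and 2 lower, beside 23.8% of all genes tested (12.6% higher and 11.1% lower).

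**Figure D1:**
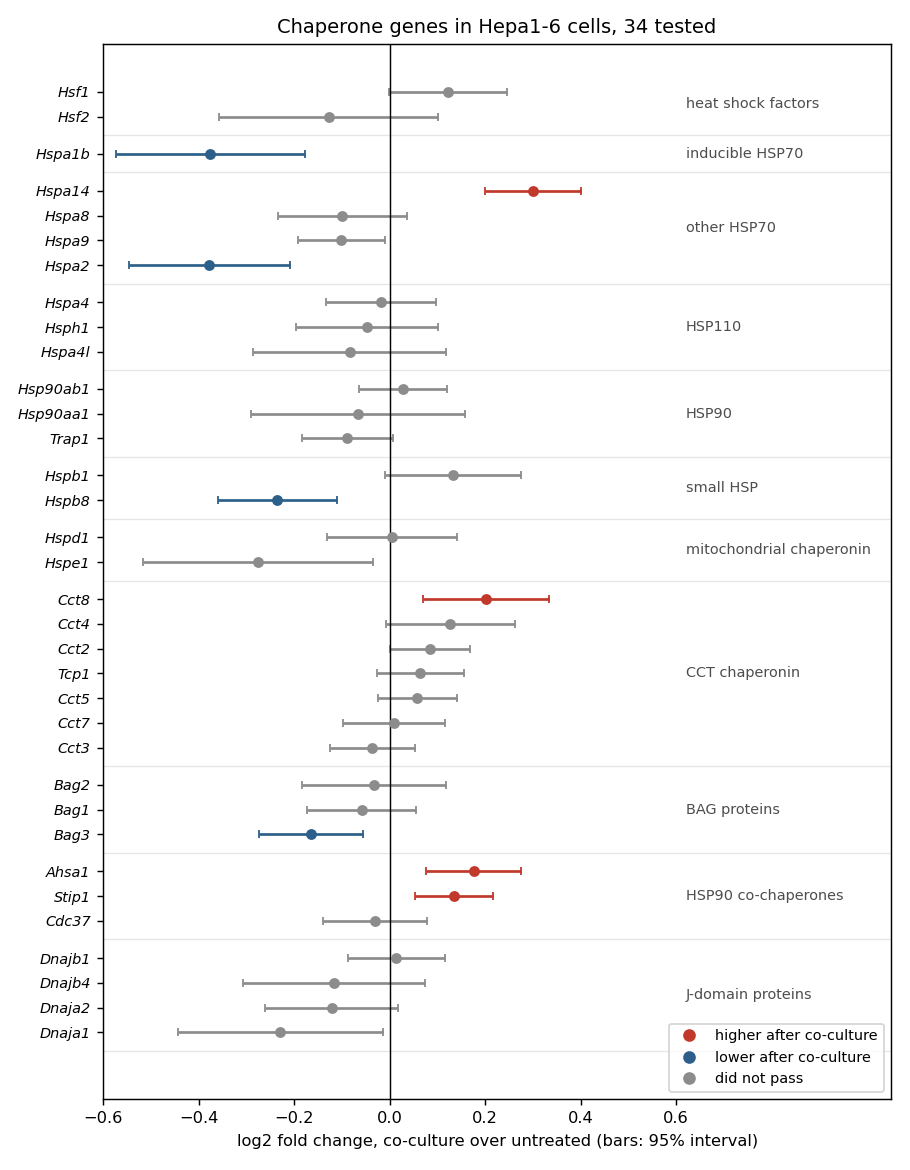
The plot shows the log2 fold change, co-culture over untreated (horizontal axis), of each tested chaperone gene with its 95% interval, ordered by protein family and coloured by direction where the gene passed. The 4 higher genes lie between 0.14 and 0.30 and the 4 lower genes between -0.38 and -0.16. Hspa1a was not tested and is not shown.

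For the 26 genes that did not pass, the estimates ran from -0.28 to 0.13 on the log2 scale and the 95% intervals reached no further than -0.52 and 0.27. In 23 of the 26 the whole interval lay within 0.32 of 0 on the log2 scale, and in all 26 within 0.58. In bulk RNA, fewer cells of a type and less RNA per cell cannot be told apart.

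Some features of the libraries are given before the values of single genes. Total counts ran from 12922263 to 16500234 in the co-culture libraries and from 13525697 to 17100662 in the untreated ones. The 15 myeloid marker genes summed to 62.8 to 74.3 CPM (counts scaled to a common library size by the TMM method) after co-culture and 26.8 to 33.4 CPM in untreated cells. Cd68, which did not pass, made up most of the untreated sum. It measured 23.3 to 27.1 CPM after co-culture and 23.02 to 30.05 CPM in untreated cells. Of the 8 markers that could be tested, 6 were higher, Adgre1 among them. Their log2 fold changes ran from 4.27 for Lyz2 to 8.04 for Ccl6. Lyz2 measured 15.6 to 20.7 CPM after co-culture and 0.527 to 1.13 CPM in untreated cells. The 12 T cell markers summed to 6.03 to 8.47 CPM after co-culture and 7.83 to 9.18 CPM in untreated cells. Tcf7 made up most of that sum, at 4.38 to 7.30 CPM after co-culture and 6.998 to 8.35 CPM in untreated cells, with Cd2, Cd3d, Cd3e and Cd8a at 0 in all 10 libraries, and 5 of 7 cytotoxic effector genes were at 0 throughout. Of the 12 hepatoma markers, Krt8 and Krt18 were abundant, and Krt8 and Afp were lower, Afp at 14.7 to 16.9 CPM after co-culture and 17.2 to 22.4 CPM in untreated cells. Apoe was higher, at 2.98 to 4.11 CPM after co-culture and 1.48 to 2.75 CPM in untreated cells, as was Trf, at 2.33 to 4.60 CPM after co-culture and 0 to 0.125 CPM in untreated cells. Fgb and Serpina1a were at 0 in every library and Alb was detected in 1 library only, at 0.245 CPM after co-culture. The part of the myeloid signal in the chaperone results was not tested.

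The heat shock factors themselves did not pass. Hsf1, the main activator of the stress response, measured 61.6, 66.2, 61.5, 58.0 and 57.5 CPM after co-culture, against 52.9, 55.5, 55.2, 55.4 and 61.1 CPM in untreated cells (log2 fold change 0.12, edgeR adjusted p = 0.12). Untreated replicate 5 overlapped the co-culture libraries and the other 4 untreated libraries lay below them all. Hsf2, a related factor that can form mixed trimers with Hsf1, measured 14.2, 12.7, 12.7, 12.7 and 14.1 CPM after co-culture, against 15.8, 17.0, 15.3, 13.6 and 10.99 CPM in untreated cells. The untreated libraries spanned the whole co-culture range, and the log2 fold change of -0.13 ± 0.106 (SE) had an adjusted p of 0.392 in the edgeR test.

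The inducible HSP70 genes were at a low level in both groups, and Hspa1b fell. Hspa1b, on mm10 chr17:34956436-34959238, measured 7.93, 9.45, 9.43, 10.1 and 9.47 CPM after co-culture, against 11.8, 12, 11.04, 13.9 and 11.3 CPM in untreated cells. The highest co-culture library lay below the lowest untreated one. The means were 9.27 ± 0.795 and 12.02 ± 1.14 CPM (SD, n = 5 each), a log2 fold change of -0.38 ± 0.0918 (SE) with an edgeR adjusted p of 0.00673. Hspa1a, its near-identical neighbour, had 4 counts summed over the co-culture libraries and 2 over the untreated ones, and was left out of the test by the filter on low counts. Of the 100-base windows of the Hspa1a transcript, 47.1% occur letter for letter in that of Hspa1b, so the split of reads between the pair is uncertain. Gm20481, on the opposite strand, also overlaps 2225 bases of Hspa1a, so reads there could be credited to either.

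Stretches near the transcription start of the lower genes with a motif match are shown beside a stretch of the mitochondrial chaperonin promoter. Heat shock elements are the promoter sequence that Hsf1 binds under proteotoxic stress, and its binding to these genes was not measured. Having a match was a condition of the choice, and the window of Hspa2, the remaining lower gene, held none. The motif searched was a pair of inverted heat shock units, GAANNTTC or TTCNNGAA, each of which reads the same on both strands, so that neighbouring pairs may share a unit. Windows ran from 250 bases before to 50 bases after each transcription start, from RefSeq on build GRCm38.p6, and 29 of the 35 genes had one. The 6 without a window were Cct4, Hsf1, Hsp90aa1, Hsp90ab1, Hspa8 and Hspa9. Matches are in capitals, and each stretch is written 5′ to 3′ on the strand of its gene.
Hspa1b: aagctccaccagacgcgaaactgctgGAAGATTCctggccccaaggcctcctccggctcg
Hspb8: gaGAAGTTTCtaggctcgcgagtccccgag
Bag3: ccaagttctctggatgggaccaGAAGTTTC
Hspe1: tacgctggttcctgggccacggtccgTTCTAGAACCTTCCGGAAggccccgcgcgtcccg
The Hspa1b stretch is chr17:34959309-34959368 on the minus strand, the Hspb8 stretch chr5:116422835-116422864 on the minus strand, the Bag3 stretch chr7:128523603-128523632 on the plus strand and the Hspe1 stretch chr1:55088033-55088092 on the plus strand. Hspa1b, Hspb8 and Bag3 each held 1 pair, and the Hspe1 stretch, which also lies in the window of 1 of the 2 Hspd1 starts on the opposite strand, held an unbroken run of alternating units.

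Of the 29 genes with a window, 13 (44.8%) held at least 1 pair in any of their windows, against 17.0% of the 27025 symbols in the same table. Counted over windows, 15.1% of all 32851 held a pair. An uninterrupted triplet (GAANNTTCNNGAA or TTCNNGAANNTTC) was found for 3 of the 29 genes, Hspd1, Hspe1 and Hsph1 (10.3%), against 0.662% of the symbols in the table. The Hspd1 and Hspe1 triplets, and the pairs within them, are the same bases read on opposite strands, so that stretch is counted for both genes. The near-identical Hspa1a and Hspa1b are also both counted, each with a pair at base -104. By direction, a pair was found in 0 of the 4 genes that were higher, in 3 of the 4 that were lower, in 9 of 20 that did not pass and in the untested Hspa1a. All 3 genes with a triplet were among those that did not pass. A match is a stretch of letters and not a measured binding site.

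The other HSP70 proteins diverged. Hspa14, on chr2:3488850-3512814, encodes an atypical HSP70 that works at the ribosome on nascent chains. It measured 72.0, 65.4, 65.9, 66.6 and 66.7 CPM after co-culture, against 55.8, 55.1, 52.9, 54.7 and 54.8 CPM in untreated cells. The groups did not overlap, with the lowest co-culture library well clear of the highest untreated one. The means were 67.3 ± 2.68 and 54.7 ± 1.09 CPM (SD, n = 5 each), the highest fold change among the chaperone genes, with a log2 fold change of 0.30 ± 0.0465 (SE) and an edgeR adjusted p of 0.000271. That corresponds to a level 23.2% higher, with a 95% interval of 14.9% to 32.1%.

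Hspa2, on chr12:76404176-76406934, encodes an HSP70 best known for its part in spermatogenesis. It measured 16.5, 14.0, 14.0, 14.3 and 13.9 CPM after co-culture, against 20.3, 19.98, 18.3, 19.1 and 16.7 CPM in untreated cells. The groups did not overlap, although co-culture replicate 1 at 16.5 CPM and untreated replicate 5 at 16.7 CPM nearly met. The log2 fold change was -0.38 ± 0.0783 (SE), with an edgeR adjusted p of 0.00238.

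Hspa8, the constitutive cytosolic HSP70, measured 1561, 1771, 2001, 1676 and 1944 CPM after co-culture, against 1899, 1940.2, 1935, 1917 and 1899 CPM in untreated cells. 3 co-culture libraries lay below all untreated ones and 2 lay above all of them, so the log2 fold change of -0.10 did not pass (edgeR adjusted p = 0.25). Hspa9, the mitochondrial HSP70 that also pulls precursors through the inner membrane, ran from 643 to 673 CPM after co-culture and from 661 to 731 CPM in untreated cells, with a log2 fold change of -0.10 and an edgeR adjusted p of 0.0828.

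None of the HSP110 genes, whose products are nucleotide exchange factors for HSP70, passed. Hspa4l measured 84.7, 65.5, 79.7, 89.7 and 93.8 CPM after co-culture, against 97.3, 96.0, 84.8, 76.1 and 84.0 CPM in untreated cells. The groups overlapped over most of their ranges (log2 fold change -0.08 ± 0.0939 (SE), edgeR adjusted p = 0.535). Hsph1, the stress-inducible member, differed by -0.05 and Hspa4 by -0.02 on the log2 scale, with edgeR adjusted p-values of 0.644 and 0.823.

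The cytosolic HSP90 genes did not pass either. Of the 3 HSP90 co-chaperones in the set 2 rose, where 17.4% of all genes tested were higher. Their log2 fold changes of 0.14 and 0.18 stand beside a median absolute size of 0.17 over all genes. Hsp90ab1, the constitutive form, measured 3872, 3976, 4113, 4135 and 3977 CPM after co-culture, against 3967, 3751, 3857, 4142 and 3976 CPM in untreated cells, a log2 fold change of 0.03 with a 95% interval of -0.06 to 0.12. Hsp90aa1, the stress-inducible form, measured 193, 149, 154, 192 and 176 CPM after co-culture, against 197, 206, 195, 164 and 143 CPM in untreated cells. Its libraries were spread widely in both groups, and the edgeR adjusted p was 0.669.

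Trap1, the mitochondrial HSP90, measured 150.1, 152, 143, 143 and 141 CPM after co-culture, against 147, 152, 156, 156 and 166 CPM in untreated cells. The groups overlapped between 147 and 152 CPM, and the log2 fold change of -0.09 ± 0.0441 (SE) did not pass (edgeR adjusted p = 0.143).

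Stip1, on chr19:7020696-7040026, encodes the adaptor that holds HSP70 and HSP90 together while a client is passed on. It measured 301, 312, 303, 299 and 314 CPM after co-culture, against 269.5, 289, 275, 275 and 283 CPM in untreated cells. All co-culture libraries lay above all untreated ones, by a log2 fold change of 0.14 ± 0.0379 (SE) with an edgeR adjusted p of 0.0142. The call was lost with no filter on low counts, where the adjusted p was 0.0533.

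Ahsa1, on chr12:87266746-87273997, encodes an activator of the HSP90 ATPase. Its libraries measured 159.9, 159, 145, 145 and 148 CPM after co-culture, against 127, 133, 138, 135 and 138 CPM in untreated cells. The groups did not overlap, and the log2 fold change was 0.18 ± 0.0463 (SE) with an edgeR adjusted p of 0.0103. Cdc37, which recruits kinases to HSP90, differed by only -0.03 on the log2 scale (edgeR adjusted p = 0.691), with 349 to 400.3 CPM after co-culture and 352 to 395 CPM in untreated cells.

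**Figure D2:**
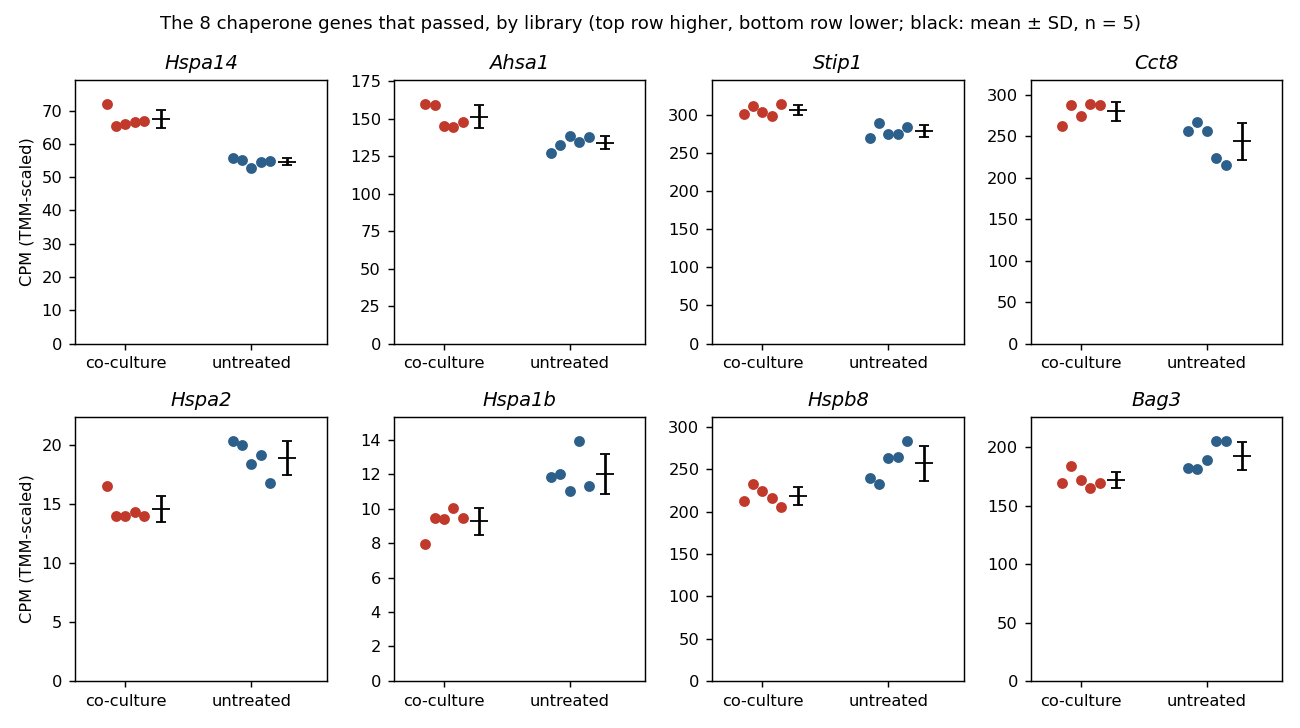
Each panel shows 1 of the 8 genes that passed, with the TMM-scaled CPM of every library as a point (vertical axis from 0, co-culture left, untreated right) and the mean ± SD of 5 libraries in black. The groups are apart for Hspa14, Ahsa1 and Stip1 in the upper row and for Hspa2 and Hspa1b in the lower row, and overlap for Cct8, Hspb8 and Bag3.

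The partners Hspb8 and Bag3 both fell. Hspb8, a small heat shock protein, and Bag3, a nucleotide exchange factor for HSP70, form a complex that directs misfolded proteins to autophagy. Hspb8, on chr5:116408491-116422864, measured 212, 233, 225, 216 and 206 CPM after co-culture, against 239.9, 232, 264, 265 and 283 CPM in untreated cells. The overlap was 1 library on each side, co-culture replicate 2 and untreated replicate 2. The log2 fold change was -0.24 ± 0.0582 (SE), with an edgeR adjusted p of 0.00724.

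Bag3, on chr7:128523616-128546981, measured 169, 184, 172, 165 and 169.8 CPM after co-culture, against 183, 182, 189.5, 205 and 206 CPM in untreated cells. Only co-culture replicate 2 reached the untreated range. The log2 fold change was -0.16 ± 0.0501 (SE), with an edgeR adjusted p of 0.0220 that became 0.0548 without untreated replicate 4. An unnamed gene model on the same strand overlaps 612 bases of Bag3, so some reads could belong to either.

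Bag1 and Bag2, further nucleotide exchange factors of HSP70, differed by -0.06 and -0.03 on the log2 scale and did not pass (edgeR adjusted p = 0.435 and 0.757). Hspb1, the small heat shock protein also called HSP25 in mouse, ran from 174 to 223 CPM after co-culture and from 169 to 190.3 CPM in untreated cells. Its log2 fold change of 0.13, opposite in sign to that of Hspb8, did not pass (edgeR adjusted p = 0.146).

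The mitochondrial chaperonin pair did not pass, and its lid had the largest standard error of the 34 genes. Hspe1, the HSP10 lid, measured 161, 179, 112, 118 and 159 CPM after co-culture, against 169, 178, 173, 193 and 171 CPM in untreated cells. Co-culture replicates 3 and 4 lay far below every other library, and the remaining 3 lay at or near the untreated range. The log2 fold change of -0.28 ± 0.112 (SE) had an edgeR adjusted p of 0.0743, which became 0.0173 without co-culture replicate 2. Hspd1, the HSP60 barrel, had a log2 fold change of 0.00 with a 95% interval of -0.13 to 0.14, at 252 to 276 CPM after co-culture and 225 to 296 CPM in untreated cells. The genes overlap by 112 bases on opposite strands, and whether counting used strand is not given in the sources used here, so reads there could be credited to either.

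Among the 7 CCT subunits in the set, only Cct8 passed, and 6 of the 7 had positive log2 fold changes with a median of 0.064. Cct8, on chr16:87483326-87495873, measured 262, 288, 275, 289 and 287 CPM after co-culture, against 257, 267, 256, 223 and 216 CPM in untreated cells. Untreated replicate 2 at 267 CPM overlapped co-culture replicate 1 at 262 CPM, and untreated replicates 4 and 5 were far lower than the rest. The log2 fold change was 0.20 ± 0.0615 (SE) with an edgeR adjusted p of 0.0222, and the call was lost without co-culture replicate 4 (0.0556) or without untreated replicate 4 (0.0555). Cct8 also overlaps Usp16 by 192 bases on the opposite strand.

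The other CCT subunits had log2 fold changes of 0.13 for Cct4, 0.08 for Cct2, 0.06 for Cct5, 0.06 for Tcp1, 0.01 for Cct7 and -0.04 for Cct3, with edgeR adjusted p-values from 0.117 to 0.911. The subunit gene Cct6a, outside the set and named after its values were seen, averaged 329 ± 15.7 CPM after co-culture and 297 ± 22.5 CPM in untreated cells and did not pass (log2 fold change 0.15, edgeR adjusted p = 0.0587). Together the 7 subunits in the set took 0.349% ± 0.00443 of all counts after co-culture and 0.327% ± 0.00747 in untreated cells (SD, n = 5 each). Scaled by library totals alone, Cct2 and Cct5 also passed as higher, as did Hsf1 and Hspb1. Under that scaling 2648 of all genes tested were higher, against 2204 in the main test.

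No J-domain gene among the 4 passed. Dnaja1, a cytosolic partner of HSP70, measured 48.0, 42.3, 48.5, 54.2 and 53.0 CPM after co-culture, against 59.7, 69.5, 59.9, 51.7 and 47.2 CPM in untreated cells. The first 3 untreated replicates lay above every co-culture library and the other 2 lay among them. The log2 fold change of -0.23 ± 0.0996 (SE) had an edgeR adjusted p of 0.0952, and of 0.0269 without untreated replicate 5. Without that library Dnaja2 (0.0118) and Hspa9 (0.0303) passed as lower too, which raised the number of lower genes to 7. In that fit 2079 of all 12785 genes tested were lower, against 2044 of 12666 in the main test. Dnajb1, a stress-inducible J-domain protein, differed by 0.01 on the log2 scale with a 95% interval of -0.09 to 0.12. Dnajb4 and Dnaja2 each differed by -0.12, with edgeR adjusted p-values of 0.346 and 0.171.

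Ratios between partner genes were compared within libraries, where no scaling enters. The 2 inducible HSP70 genes summed, over Hspa8, gave log2 ratios of counts of -7.62, -7.51, -7.73, -7.38 and -7.68 after co-culture, against -7.33, -7.34, -7.45, -7.10 and -7.38 in untreated cells. The ratio was lower after co-culture by 0.27 ± 0.0854 (SE) on the log2 scale, and the 2-sided exact permutation test gave p = 0.0238, or 0.0952 adjusted over the 4 ratios tested. The smallest p this design allows is 0.00794.

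Hspd1 over Hspe1 gave log2 ratios of 0.78, 0.49, 1.25, 1.22 and 0.77 after co-culture, against 0.72, 0.74, 0.64, 0.48 and 0.40 in untreated cells, a difference of 0.31 ± 0.160 (SE) with an exact permutation p of 0.0873 and an adjusted p of 0.175. Co-culture replicate 2 lay inside the untreated range and the other 4 above it, replicates 3 and 4 farthest. Hsp90aa1 over Hsp90ab1, the inducible over the constitutive HSP90, differed by -0.09 ± 0.144 (SE), and Hsph1 over Hspa4 by -0.03 ± 0.0506 (SE). Their exact permutation p-values were 0.516 and 0.532, both 0.532 after adjustment.

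**Figure D3:**
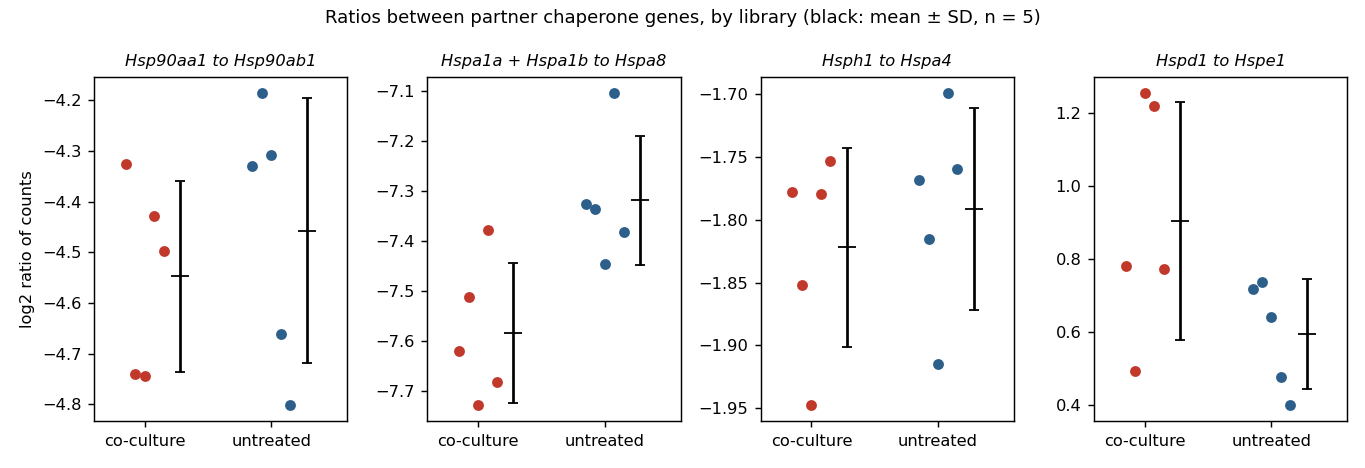
Each panel shows the log2 ratio of counts of 1 pair of partner genes in every library (vertical axis, a separate scale per panel that does not start at 0; co-culture left, untreated right), with the mean ± SD of 5 libraries in black. The ratio of the inducible HSP70 genes to Hspa8 was lower after co-culture by 0.27, with 1 co-culture library inside the untreated range. For Hspd1 over Hspe1, 4 co-culture libraries lie above the untreated range and 1 inside it, and the Hsp90aa1 and Hsph1 ratios overlap broadly.

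Per gene length, the levels spanned a wide range. In the deposited FPKM (counts divided by gene length and library size), Hsp90ab1 stood highest at 701 ± 22.2 after co-culture and 672 ± 21.8 in untreated cells (SD, n = 5 each). Cct2 followed at 285 ± 6.60 and 263 ± 7.88 FPKM, then Cct5 at 218 ± 3.30 and 205 ± 3.80 FPKM and Hspa8 at 199 ± 20.4 and 209 ± 2.94 FPKM. Cct5 and Hspa8 did not differ beyond their spread in either group. At the low end lay Dnaja1 at 3.6 ± 0.387 and 4.13 ± 0.643 FPKM, Hspa1b at 3.34 ± 0.289 and 4.23 ± 0.383 FPKM, and Dnajb4 at 2.47 ± 0.223 and 2.61 ± 0.326 FPKM. Dnaja1 and Hspa1b are also neighbours within their spread. Stress-inducible forms thus stood below their constitutive relatives in both groups, Hsp90aa1 (26.6 ± 3.49 and 27.2 ± 4.21 FPKM) below Hsp90ab1 and Hspa1b below Hspa8, and the same held after the rescaling described next.

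The order of levels depends on the length behind the FPKM. The length implied by the deposited counts and FPKM was over 2 times that of the longest coding transcript in GENCODE M21 for 16 of the 35 genes, and exceeded the whole locus for 3, Hspa8, Hsp90ab1 and Hspb1. Rescaled to that transcript, Hsp90ab1 stayed first, Hspa8 moved to rank 2 from rank 4, Cct3 to rank 5 from rank 15 and Cdc37 to rank 23 from rank 5. Comparisons of 1 gene between groups are not affected by this length, which is the same in every library. They do depend on the scaling, since the deposited FPKM use library totals and not TMM.

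**Figure D4:**
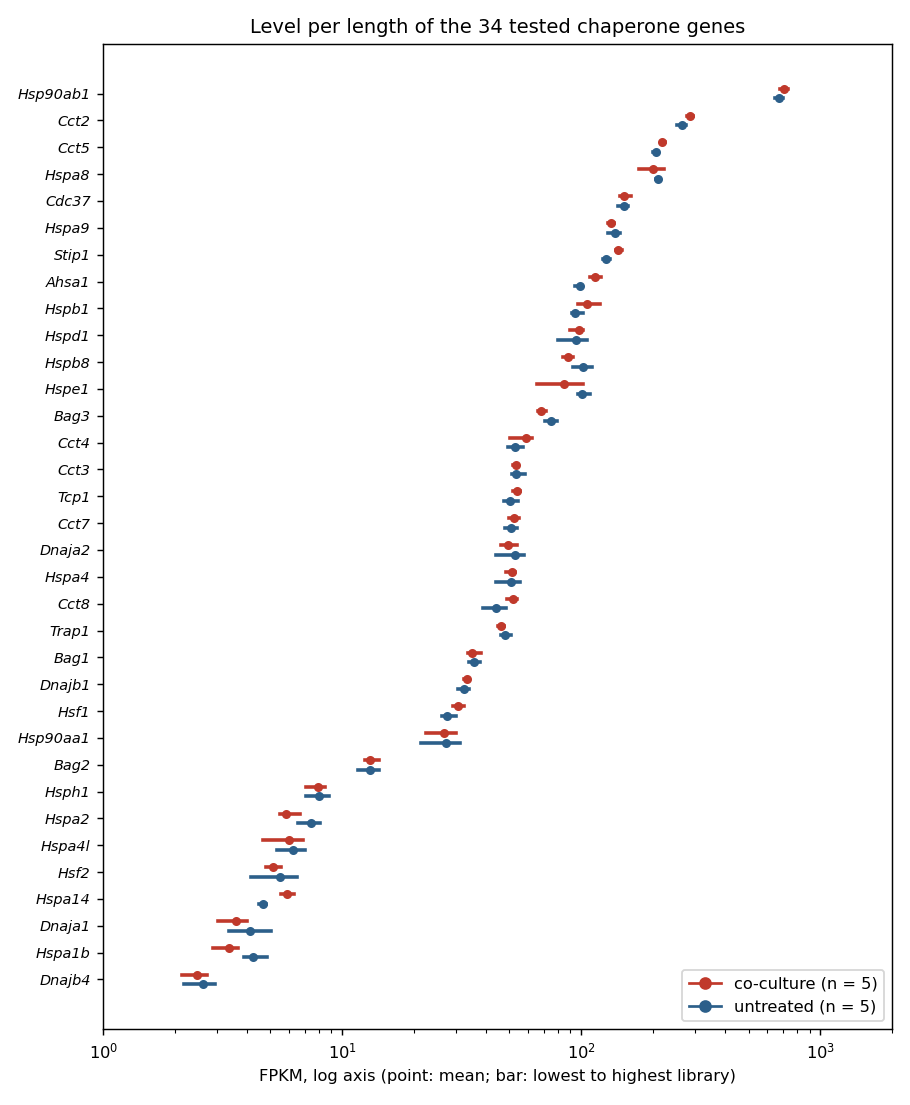
Deposited FPKM of the 34 tested chaperone genes on a log axis, with the mean of 5 libraries as a point and the lowest to highest library as a bar, co-culture above untreated for each gene. The levels run from Hsp90ab1 at 701 and 672 FPKM to Dnajb4 at 2.47 and 2.61 FPKM, and the bars of both groups overlap for most genes.

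Related genes outside the 35 were read from 8 lists holding 110 genes, 100 of them tested, of which 17 were higher and 15 lower. That is 32%, beside 33.5% of all genes, with a median log2 fold change of 0.014. Of 20 other co-chaperones of HSP90 and HSP70, 6 (30%) were higher and 0 lower, with a median of 0.087. Over all genes tested, 17.4% were higher and 16.1% lower. Ppp5c, a phosphatase that docks on HSP90, averaged 132 ± 5.69 CPM after co-culture and 105 ± 6.34 CPM in untreated cells (SD, n = 5 each; log2 fold change 0.33, edgeR adjusted p = 0.000323). Fkbp5, an HSP90-bound immunophilin that dampens glucocorticoid receptor signalling, averaged 174 ± 7.07 and 139 ± 6.64 CPM (0.32, adjusted p = 0.000170 by edgeR).

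Of 18 chaperones of the endoplasmic reticulum, 5 were higher and 0 lower, with a median log2 fold change of 0.073. The share called was 27.8%, beside 33.5% of all genes tested (17.4% higher and 16.1% lower). Dnajb11, a J-domain partner of the HSP70 in that compartment, averaged 123 ± 3.33 CPM after co-culture and 102 ± 3.77 CPM in untreated cells (log2 fold change 0.27, edgeR adjusted p = 0.000297). Pdia6, a protein disulfide isomerase, differed by 0.24 (edgeR adjusted p = 0.000585).

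Of 18 genes of mitochondrial protein quality control, 1 was higher and 5 were lower, with a median log2 fold change of -0.025. The share called was 33.3%, beside 33.5% of all genes tested (17.4% higher and 16.1% lower). Hscb, the J-domain protein of iron-sulfur cluster assembly, averaged 9.10 ± 1.51 CPM after co-culture and 15.0 ± 1.53 CPM in untreated cells (log2 fold change -0.72, edgeR adjusted p = 0.000368). For Atf5, a transcription factor tied to the mitochondrial unfolded protein response, the log2 fold change was -0.45 (edgeR adjusted p = 0.000530).

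In the list of prefoldin subunits, phosducin-like proteins and other CCT genes, 0 of 10 genes were higher and 3 lower, with a median log2 fold change of -0.15. The share called was 30%, beside 33.5% of all genes tested (17.4% higher and 16.1% lower). The 3 lower genes were Pfdn5, Pdcl3 and Txndc9, of which only Pfdn5 encodes a subunit of prefoldin, the complex that passes actin and tubulin to CCT. Pfdn5 averaged 49.2 ± 6.06 CPM after co-culture and 75.7 ± 7.36 CPM in untreated cells (log2 fold change -0.62, edgeR adjusted p = 0.000147), and Pdcl3 fell by 0.26 (edgeR adjusted p = 0.0163). Of 21 other J-domain genes, 1 was higher and 3 were lower, a share called of 19%. Dnajc9, a histone chaperone, had a log2 fold change of 0.50 (edgeR adjusted p = 6.62e-05) and Dnaja4 one of -0.70 (edgeR adjusted p = 0.000148).

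The remaining lists were short. In the list named for other small heat shock proteins, 3 genes were tested, 2 of them higher and 1 lower, beside 33.5% called of all genes tested. Cryab, the alpha-B crystallin, averaged 5.24 ± 0.8 CPM after co-culture and 2.92 ± 0.578 CPM in untreated cells (log2 fold change 0.84, edgeR adjusted p = 0.00145). Hspb11, in the list by its symbol only, fell by 0.35 (edgeR adjusted p = 0.00592). Among 8 other heat shock response genes, 2 were higher and 2 lower, a share called of 50%. Ier5, a target and activator of Hsf1, had a log2 fold change of 0.17 (edgeR adjusted p = 0.0148). Hsbp1, which binds the Hsf1 trimer, had a log2 fold change of -0.29 (edgeR adjusted p = 0.000789), and Hsf4 at 0.12 did not pass (edgeR adjusted p = 0.266).

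**Figure D5:**
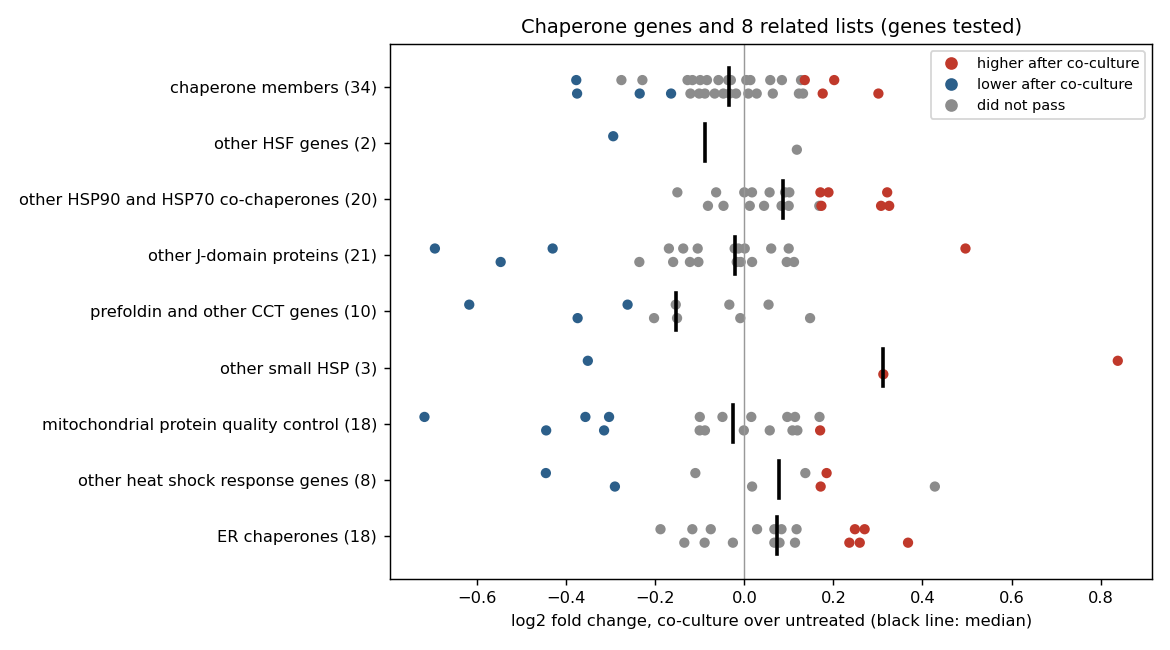
Each point is a tested gene at its log2 fold change, co-culture over untreated (horizontal axis), in rows for the 35-gene chaperone set and 8 related lists, with the number tested in brackets, colours for direction and a black line at the median. The chaperone set lies between -0.38 and 0.30, and points beyond that range occur in the related lists, Cryab at 0.84 and Hscb at -0.72 farthest out.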

How the data were processed

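The deposited table gives, per the file headers, whole-number counts and FPKM for each gene in 10 libraries, with mm10 positions. RSEM 1.2.8, Bowtie2 2.2.5, HISAT2 2.1.0 and mm10 are listed, without roles, per the submitters' processing notes. The sources used here do not give the annotation or the use of strand at counting. The deposited FPKM are the same counts over the library total and 1 fixed length per gene. All 35 symbols were found in the table. Of these genes, 10 overlapped another gene, 9 of them on the opposite strand, such as Tcp1 with Acat3 (1235 bases) and Dnaja1 with Smu1 (608 bases).

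Counts were tested with edgeR 4.0.16 (R 4.3.3) by filterByExpr, TMM scaling and the 2-sided quasi-likelihood F test over 12666 genes, with Benjamini-Hochberg adjustment and calls under 0.05. The script was tested on simulated data. CPM are TMM-scaled. Within groups, no 2 libraries agreed within sampling noise (chi-square per degree of freedom 6.67 to 15.1 over 20 pairs). Alternatives were DESeq2 1.42.0, limma 3.58.1 on log2(FPKM + 1) and log2(FPKM + 0.1), other scalings and filters, a replicate block, and each library left out. Exact permutation tests compared 4 ratios. Full values are given for the called genes and for the gene with the largest absolute change in each family, plus paired relatives. From each related list the 2 genes with the smallest p are named, except 1 gene that is not reported here. The members and lists were chosen with earlier results of these data known.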

Additional observations from a re-analysis of the deposited data

Results flagged for a closer look

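In 7 of the 76 groups of 5 libraries examined for the chaperone genes and ratios, 1 library stood apart from the other 4 by a gap over 0.71 of the group's range; chance gives about 1 in 20. Hspa2 reached 16.5 CPM and Hspa14 72.0 CPM in co-culture replicate 1, with the next libraries at 14.3 and 66.7 CPM. Cct5 reached 944 CPM and Cdc37 400.3 CPM in co-culture replicate 2, with the next at 896 and 364 CPM. In untreated cells, Hspb1 reached 190.3 CPM in replicate 4 (next 174 CPM), Cct3 reached 547 CPM in replicate 2 (next 506 CPM), and Dnaja2 was at only 127 CPM in replicate 5 (next 155 CPM). Hspa2 and Hspa14 kept their calls in each of the 10 fits without 1 library.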

How the results depend on the processing

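The median SE of the 34 genes was 0.058 on the log2 scale, against 0.087 over all genes tested. How depth limits the calls was not tested. Hspa1b, Hspa2, Hspa14 and Hspb8 passed under all 20 alternatives. The number of higher genes, 4 in the main test, was 8 with library totals only, 7 with limma on log2(FPKM + 1), 7 on log2(FPKM + 0.1) and 1 with the replicate block, and 3 to 5 without 1 library. Over all genes tested, 2204 were higher in the main test and 2648 with library totals only. The limma fits gave 2653 and 2641, the replicate block 1762, and the fits without 1 library 1849 to 2128. The number of lower genes, also 4, was 3 to 7 without 1 library and 6 with DESeq2, where Hspe1 (adjusted p = 0.0462) and Hspa9 (0.0479) passed. Of all genes tested, 2044 were lower in the main test, 1813 to 2093 without 1 library and 2163 with DESeq2. The median log2 fold change was -0.0019 with library totals only, -0.0012 and -0.0011 with limma, and -0.062 to -0.017 without 1 library. The median over all genes tested, 0.0085 in the main test, was 0.042 with library totals only and 0.029 and 0.040 with limma. It ran from 0.0015 to 0.011 without 1 library. The related genes called higher, 17, were 10 with the replicate block. The cause of these shifts was not tested.

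Replicate numbers did not pair the libraries: same-numbered libraries deviated with correlations of -0.14 to 0.055 and 0 of 5 correlated best with its own number. With the replicate block 3387 of all genes were called, against 4248, and Cct8 (adjusted p = 0.0525), Bag3 (0.0758), Stip1 (0.0540) and Ahsa1 (0.0529) did not pass. Exact paired sign-flip tests of the 4 ratios cannot go below p = 0.0625.

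Some small values changed sign. Hspa4 was 0.014 with library totals only and 0.017 and 0.018 with limma (-0.068 to 0.0042 without 1 library). Hspd1 was -0.00094 with RLE scaling, -0.0049 with upper quartile scaling, -0.0010 with DESeq2 and -0.0093 with no filter (-0.057 to 0.042 without 1 library). Cct7 was -0.00074 and -0.0049 with upper quartile scaling and no filter (-0.022 to 0.026), Bag2 0.00026 and 0.00038 with limma (-0.082 to 0.0019), Cdc37 0.0027, 0.0025 and 0.0025 with library totals and limma, and Dnajb1 -0.00019 with no filter (-0.015 to 0.027). The Hsph1 to Hspa4 ratio ran from -0.062 to 0.00076 without 1 library.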

Other observations

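Libraries of a group were not evenly placed across the chaperone genes. Untreated replicate 5 was the lowest of its group for 14 of the 34 tested genes (41.2%), against 23.9% of all tested genes, and co-culture replicate 2 was the highest of its group for 15 (44.1%), against 27.1% of all.

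Serpinh1, the collagen chaperone HSP47 of the endoplasmic reticulum, was chosen after its values were seen. It measured 1983, 1263, 1989, 2012 and 1929 CPM after co-culture, against 1848, 1868, 995, 1079 and 1033 CPM in untreated cells, so that 1 co-culture and 3 untreated libraries stood well below the other 6.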
